A study of Mus musculus with 6 samples.

Results

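The insulin-like growth factor (IGF) axis was followed in the mouse heart after sham treatment or tail-suspension through 10 genes: the ligand Igf1, the receptors Igf1r and Igf2r, and the binding proteins Igfbp1 to Igfbp7. The members were all probes, other than control probes, that carry 1 of these 10 gene names on the array. They numbered 10 of 28909 gene names and 15 of 55681 probes. RNA of 3 sham heart samples and 3 heart samples after 28 days of tail-suspension, which lifts the hindlimbs off the floor and is used to simulate microgravity, were each hybridised to 1 one-colour Agilent array. All animals were male C57BL/6 mice with no transgene or deletion named, and sham mice were kept in the same space under the same feeding. The labels give both 11 weeks as the age and 10 weeks as the age at the start of the 28 days, which cannot both hold for the tail-suspended group at the end. The replicates are labelled as separate samples, but nothing states that each came from its own animal. The p-values therefore set differences against the spread between these samples, and need not hold between animals.

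IGF-1 is made in the liver under growth hormone and also locally in the heart. It binds the receptor encoded by Igf1r, a tyrosine kinase that signals through insulin receptor substrates, PI3K, Akt and mTOR towards growth and survival of cardiac muscle, and that restrains FoxO transcription factors. Igf2r encodes the mannose-6-phosphate receptor, which takes up and degrades IGF-2 and has no kinase. The binding proteins hold IGFs in blood and tissue, limit or prolong their access to the receptor, and are cut by proteases that release the ligand.

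The values of each gene rest on 60-base probes, so the start of the probes on which the results turn is shown first, as the first 30 bases 5′ to 3′ with the whole probe's position on mm9. Capitals mark the bases that the printed stretches of both overlapping Igf1 probes share.
Igf1 A_55_P2085979 (chr10:87378456-87378515, + strand): aaccattaaaaacatgccaccaagaccttc
Igf1 A_55_P2085984 (chr10:87393561-87393620, + strand): cctaccaaataacaataataAGTCCAATAA
Igf1 A_55_P2031631 (chr10:87393581-87393640, + strand): AGTCCAATAAcattacaaagatgggcattt
Igf1r (chr7:75378461-75378520, + strand): gctaaagctaaggccacttgagtctattac
Igfbp3 (chr11:7106594-7106653, - strand): gcagttttccaaaaacacagatttcttttc
Igfbp4 (chr11:98913334-98913393, + strand): gagaagagaaacctcattcttggagtgaga
Igfbp5 (chr1:72904829-72904888, - strand): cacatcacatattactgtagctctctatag
The Igf1 probes A_55_P2085984 and A_55_P2031631 start 20 bases apart and share 40 bases, so they read nearly the same stretch of transcript and are no independent readings. The probe A_55_P2085979 lies 15.1 kb before that pair and is assigned by the array to another Igf1 transcript than the other 4 Igf1 probes. The position of the probes within exons was not analysed here. The Igf2r probe maps to only 11 bases in the array's own annotation, so its position is incomplete.

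The 3 genes that passed the test below, and Igfbp1 as the neighbour of Igfbp3, are also shown by the 250 bases before the transcription start (RefSeq, GRCm38.p6, a different build from the probe positions). The array's probes for Igfbp1 and Igfbp3 lie 4092 bases apart on opposite strands of chromosome 11, and those for Igfbp2 and Igfbp5 lie 6092 bases apart on chromosome 1. Capitals mark matches, on either strand, to GGGCGG (the GC box), TATAAA (the TATA box) and CAAAACA (the core of the insulin response sequence, which FoxO factors bind); no match overlapped a match to another motif.
Igf1r (chr7:67952007-67952256, + strand): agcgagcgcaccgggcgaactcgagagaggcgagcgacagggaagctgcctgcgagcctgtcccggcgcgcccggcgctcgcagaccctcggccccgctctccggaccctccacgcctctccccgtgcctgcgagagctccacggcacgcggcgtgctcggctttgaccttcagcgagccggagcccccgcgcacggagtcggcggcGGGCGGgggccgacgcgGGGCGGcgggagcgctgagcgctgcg
Igfbp1 (chr11:7197537-7197786, + strand): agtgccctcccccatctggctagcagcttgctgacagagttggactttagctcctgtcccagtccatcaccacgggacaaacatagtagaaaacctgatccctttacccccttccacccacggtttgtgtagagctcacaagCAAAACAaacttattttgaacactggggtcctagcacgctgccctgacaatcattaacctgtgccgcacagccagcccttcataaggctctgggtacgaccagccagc
Igfbp3 (chr11:7213924-7214173, - strand): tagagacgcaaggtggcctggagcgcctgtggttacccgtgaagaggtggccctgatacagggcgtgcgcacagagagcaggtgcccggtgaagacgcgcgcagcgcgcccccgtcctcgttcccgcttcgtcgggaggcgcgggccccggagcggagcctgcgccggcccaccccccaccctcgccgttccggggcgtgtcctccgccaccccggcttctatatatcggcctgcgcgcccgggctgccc
Igfbp4 (chr11:99040994-99041243, + strand): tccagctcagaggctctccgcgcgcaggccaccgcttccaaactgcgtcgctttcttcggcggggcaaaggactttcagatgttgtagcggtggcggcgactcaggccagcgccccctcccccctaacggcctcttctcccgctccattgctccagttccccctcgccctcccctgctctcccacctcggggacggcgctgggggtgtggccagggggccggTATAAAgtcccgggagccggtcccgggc
A promoter was found for all 10 members, 11 in all since Igfbp2 has a pair of entries. Of 32851 promoters of this length in the table, 32.7% held the GC box, 12.4% the TATA box and 5.56% the insulin response core. Among the 11 member promoters 4 held the GC box, 2 the TATA box and 1, that of Igfbp1, the insulin response core. Guanine and cytosine made up 77.6% of the Igf1r window and 73.2% of the Igfbp3 window, above 97.6% and 94.3% of all promoters, against 53.2% for Igfbp1. These matches describe letters in a short window and no more.

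On the 6 arrays, 50.9% to 53.4% of probes were well above background, 146 to 212 spots carried an outlier flag and none was saturated. Arrays correlated at 0.991 to 0.996 within a group and at 0.978 to 0.984 between groups. Levels below are log2 of the background-corrected intensity relative to the 75th percentile of the array, which lay between 259.1 and 325.6 intensity units, so a level of 0 equals that percentile. All 8 cardiomyocyte markers examined, which define the labelled tissue, were well above background. Every array lay on 1 slide and was read in 1 scan, but tail-suspension replicates 2 and 3 lay in the second row of the slide and the other 4 arrays in the first.

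Of the 10 members, 7 were tested, because at least 1 of their probes stood well above background on all arrays of a group. Igf1r, Igfbp3 and Igfbp4 were higher in tail-suspended hearts at an adjusted p under 0.05 (limma, Benjamini-Hochberg over 28030 probes), and none was lower. Over all 17138 genes tested in the same way, 10.1% were higher and 10.5% lower. The median log2 change of the 7 was 0.34, beside -0.02 over all genes tested. With no overlap between the groups, 3 members were higher and 2, Igf1 by its brightest probe and Igfbp5, were lower, where 21.5% and 24.3% of all genes were. A gene with several tested probes is read here from the brightest. All 5 of these genes gave a two-sided p of 0.1 in an exact permutation test, the smallest that 3 arrays against 3 allow. Groups that do not overlap always give this value, so it adds no support.

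**Figure D1:**
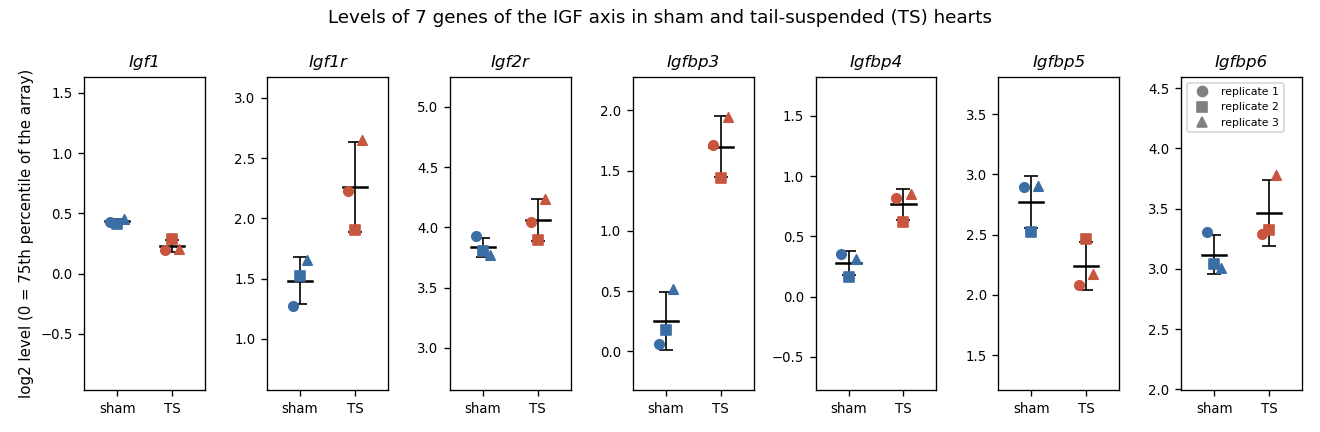
Log2 level of the 7 tested members (brightest tested probe; vertical axis, 0 is the 75th percentile of the array, every panel spans the same number of log2 units) on each sham and tail-suspension (TS) array. Shapes are replicates, which have no order between groups, and bars are the mean and SD of 3 arrays. The TS arrays lie above the sham arrays for Igf1r, Igfbp3 and Igfbp4 and below them for Igf1 and Igfbp5.

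Igfbp3 encodes the main carrier of IGFs in blood, which is also made in tissues. Its intensity was 283, 308 and 372 units in the sham hearts and 953, 883 and 1216 in the tail-suspended hearts. On the log2 scale these were levels of 0.06, 0.18 and 0.52 in sham and 1.71, 1.44 and 1.95 in tail-suspended hearts. The lowest tail-suspension array thus stood clear of the highest sham array. Mean levels were 0.25 ± 0.24 for the sham and 1.70 ± 0.25 for the tail-suspended hearts (SD, n = 3 each), a log2 change of 1.45 ± 0.17 (SE), or 2.73-fold, with a 95% interval of 2.05 to 3.63-fold (limma, adjusted p = 0.00456). This change was larger than that of 98.5% of the genes tested. Beside the sham arrays in the first row of the slide, the single tail-suspension array of that row was higher by 1.46 on the log2 scale, and the pair in the second row by 1.44. A fit with the slide row as a block estimates the same first-row difference, of 1 array against 3, here and for the members below. Its estimate is therefore no separate check. With the slide row as a block the change was 1.46 and did not pass (limma, adjusted p = 0.0591), whereas it passed in every one of the other 18 alternatives. As the RNA is from heart tissue with all its cells, a change in the number of cells of a type and a change in RNA per cell cannot be told apart. This holds here and in all results below.

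Igf1r encodes the IGF-1 receptor. Its levels were 1.27, 1.52 and 1.66 in sham and 2.23, 1.90 and 2.65 in tail-suspended hearts. The groups did not overlap, and tail-suspension replicate 3 was the highest array. The log2 change was 0.78 ± 0.20 (SE), or 1.71-fold, with a 95% interval of 1.23 to 2.39-fold (limma, adjusted p = 0.0405). The array of the first slide row was higher than the sham mean by 0.74 and the pair of the second row by 0.79. The call depended on single arrays and on the processing. It was lost when any sham array or tail-suspension replicate 1 or 3 was left out (changes of 0.58 to 0.86; limma, adjusted p 0.0644 to 0.118), without a filter on dim probes, with the methods' t-test, and with the slide row as a block (limma, adjusted p = 0.245).

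Igfbp4 encodes a binding protein that inhibits IGF action in most settings and is cut by the protease PAPP-A. It stood at 0.35, 0.17 and 0.32 in sham and at 0.82, 0.62 and 0.85 in tail-suspended hearts. Each group was narrow and the gap between them was wider than either. The log2 change was 0.49 ± 0.10 (SE), or 1.40-fold, with a 95% interval of 1.18 to 1.67-fold (limma, adjusted p = 0.0245). Within the first slide row the difference was 0.55 and for the second-row arrays 0.46. This call too was lost when any sham array or tail-suspension replicate 1 or 3 was left out (changes of 0.43 to 0.53; limma, adjusted p 0.0505 to 0.0933), without a filter on dim probes, with the methods' t-test, and with the slide row as a block (limma, adjusted p = 0.149).

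Igfbp5 encodes a binding protein that associates with the extracellular matrix. Its levels were 2.90, 2.52 and 2.90 in sham and 2.08, 2.46 and 2.17 in tail-suspended hearts. The groups were separate by a narrow margin, between sham replicate 2 and tail-suspension replicate 2, and before scaling their intensities overlapped. The log2 change was -0.53 ± 0.15 (SE), with a 95% interval of -0.89 to -0.17, and it did not pass the threshold (limma, adjusted p = 0.0512). In 6 of 19 alternatives it did pass, and over all 19 the adjusted p ran from 0.0263 to 0.161.

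Igfbp6 encodes the binding protein with a preference for IGF-2. It was measured at 3.31, 3.04 and 3.01 in sham and at 3.29, 3.33 and 3.78 in tail-suspended hearts, and the groups overlapped. The log2 change of 0.34 ± 0.16 (SE), with a 95% interval of -0.04 to 0.73, did not pass (limma, adjusted p = 0.167). For Igf2r, which was spotted 10 times on each array, the levels were 3.92, 3.80 and 3.77 in sham and 4.04, 3.90 and 4.24 in tail-suspended hearts. The log2 change of 0.23 ± 0.11 (SE), with a 95% interval of -0.04 to 0.50, did not pass either (limma, adjusted p = 0.192). These intervals leave room for a rise and do not show that the levels were alike.

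**Figure D2:**
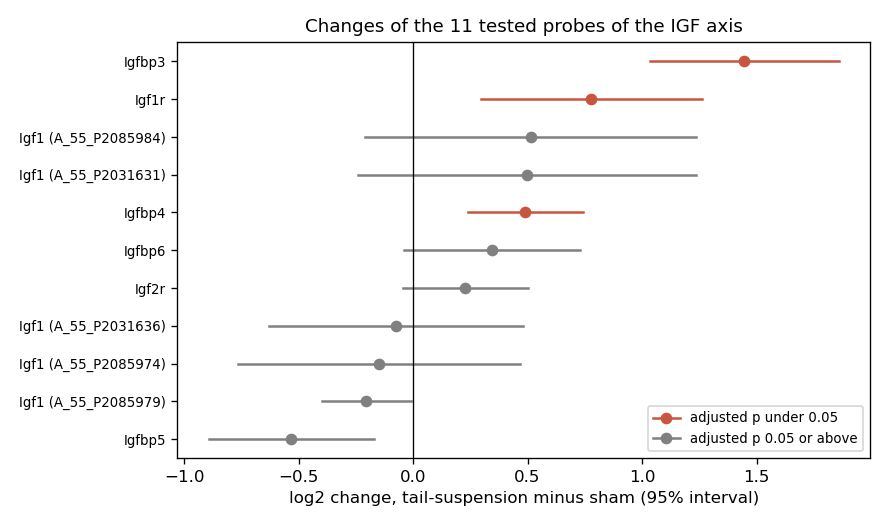
Log2 change, tail-suspension minus sham (horizontal axis), of the 11 tested probes of the axis (rows), with 95% intervals from limma. Colour marks an adjusted p under 0.05, which 3 probes reached, and the 5 Igf1 probes, marked by their names, lie on both sides of 0.

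The ligand gene Igf1 had 5 probes, all well above background on all 6 arrays, and they did not read the same. The brightest, A_55_P2085979, gave levels of 0.43, 0.42 and 0.46 in sham and 0.19, 0.29 and 0.21 in tail-suspended hearts. Both groups were tight and did not overlap, but before scaling they did, with intensities of 365, 362 and 355 units in sham and 333, 397 and 364 in tail-suspended hearts, and the log2 change of -0.20 ± 0.08 (SE) did not pass (limma, adjusted p = 0.116). The overlapping pair printed above moved the other way. A_55_P2085984 stood at -0.83, -0.66 and -0.76 in sham and at -0.23, -0.90 and 0.42 in tail-suspended hearts. A_55_P2031631 stood at -0.28, -0.13 and -0.26 in sham and at 0.35, -0.43 and 0.91 in tail-suspended hearts. On both, by these levels, tail-suspension replicates 1 and 3 were above every sham array and replicate 2 was below every sham array. Before scaling, replicate 2 was not below every sham array. A_55_P2085984 gave 152.6, 172 and 152.6 units in sham and 175 in replicate 2. A_55_P2031631 gave 223.6, 248.5 and 216.6 units in sham and 241.6 in replicate 2. The log2 changes of this pair, 0.51 ± 0.30 and 0.50 ± 0.31 (SE), did not pass (limma, adjusted p = 0.259 and 0.282). Without tail-suspension replicate 2 they were 0.84 and 0.85 and both passed (limma, adjusted p = 0.0403 and 0.0295). Without tail-suspension replicate 3 they were 0.19 and 0.18 and neither passed (limma, adjusted p = 0.589 and 0.643). The size of these changes thus depends on single arrays in both directions. The remaining probes lay 17.47 and 21.12 kb from the first. A_55_P2031636 stood at -2.32, -2.32 and -1.92 in sham and at -2.27, -2.69 and -1.82 in tail-suspended hearts. A_55_P2085974 stood at -0.25, -0.09 and -0.21 in sham and at -0.14, -0.95 and 0.10 in tail-suspended hearts. Here too replicate 2 was the lowest of all 6 arrays, and the groups overlapped. These probes changed by -0.07 ± 0.23 and -0.15 ± 0.26 (SE), and neither passed (limma, adjusted p = 0.839 and 0.705). Averaged over its 5 probes, Igf1 changed by 0.12 (limma, adjusted p = 0.718), so the sign of its change depends on the probe.

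**Figure D3:**
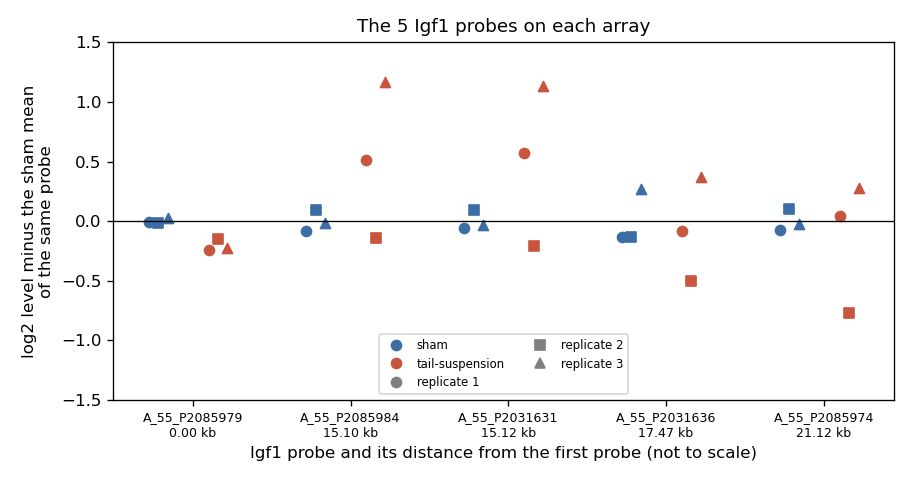
Log2 level of each Igf1 probe on each array, relative to the sham mean of the same probe (vertical axis), for the 5 probes in the order of their distance from the first in kb (horizontal axis, not to scale). The sham arrays are tight for 4 of the 5 probes. Tail-suspension replicate 2 (squares) is the lowest tail-suspension array on 4 probes and the highest on the first.

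Tail-suspension replicate 2 gave the lowest tail-suspension level for 4 of the 7 tested members (Igf1r, Igf2r, Igfbp3 and Igfbp4) and 8 of the 11 tested probes, and replicate 3 the highest for 5 of the 7. Over 17134 tested genes with a value on every tail-suspension array, replicate 2 was the lowest of the 3 for 45.0%, beside 28.3% for replicate 1 and 26.7% for replicate 3. Replicate 3 was the highest for 34.8%, beside 32.4% for replicate 1 and 32.8% for replicate 2. A lowest replicate 2 was thus also common elsewhere, whereas the highest array was spread almost evenly. The SD of the overlapping Igf1 pair was 0.66 and 0.67 in tail-suspended hearts, beside 0.09 and 0.08 in sham hearts. Among marker lists of other cells, replicate 2 was the lowest tail-suspension array for 8 of 8 fibroblast markers tested, 6 of 7 macrophage, 5 of 6 neutrophil, 5 of 6 hepatocyte and 6 of 8 pericyte and smooth muscle markers, but for 4 of 8 cardiomyocyte, 2 of 8 endothelial, 1 of 4 lymphocyte and 0 of 5 erythroid markers. Whether any of these cells had a part in the spread of the members was not tested.

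Igfbp1, Igfbp2 and Igfbp7 could not be tested. The probe of Igfbp1, which encodes a binding protein made chiefly by liver under the control of insulin, was not well above background on any array, with intensities between 2.82 and 4.68 units. Igfbp2 encodes a binding protein abundant in fetal tissue and in blood. One of its probes, A_55_P2056729, was well above background on 2 of 3 sham arrays, at 18.0, 16.3 and 10.0 units, and on 1 of 3 tail-suspension arrays, at 6.42, 8.42 and 20.9 units, and its other probe on none. Igfbp7 encodes a protein that binds insulin and IGFs weakly and is known from blood vessels, yet its probe, at 7.21 to 15.7 units, was not well above background on any array. A dim probe gives only a bound and does not show that a transcript is absent: the endothelial markers examined, 8 of 8, were well above background in the same hearts.

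Beyond the 10 members, 83 further genes of the pathway were listed by role and 74 were tested. Of these, 10 were higher and 11 lower in tail-suspended hearts, where 20.6% of all genes tested passed in either direction, and their median log2 change was 0.03. The number higher lay between 7 and 10 when single arrays were left out. The number lower fell to 5 without sham replicate 1, to 4 without sham replicate 2, to 7 without tail-suspension replicate 1 and to 6 without tail-suspension replicate 3. With the slide row as a block 2 of them, Foxo3 and Socs3, were higher and none was lower, with an unadjusted p under 0.05 in 5880 of all probes tested (limma).

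Among ligands and receptors, Insr, which encodes the insulin receptor and can pair with the IGF-1 receptor in hybrids, stood at 1.25, 1.35 and 1.46 in sham and at 1.98, 2.13 and 2.03 in tail-suspended hearts. The groups were well apart, with a log2 change of 0.69 ± 0.10 (SE; limma, adjusted p = 0.00726). Its other probes changed by 0.46 (limma, adjusted p = 0.0457) and 0.32 (limma, adjusted p = 0.11). Igf2, the second ligand, was dim and changed by 0.00 ± 0.24 (SE; limma, adjusted p = 0.993). Igfals, whose product joins IGF and Igfbp3 in the large complex of the blood, changed by -0.34 ± 0.19 (SE; limma, adjusted p = 0.232).

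Of 5 tested proteases and inhibitors that set how much ligand the binding proteins release, 1 passed the threshold, where 20.6% of all genes did. Htra1, a secreted serine protease that cuts IGF-binding proteins, fell by 0.83 on the log2 scale (SE 0.15; limma, adjusted p = 0.0138), a call lost without sham replicate 2 (limma, adjusted p = 0.0558). Pappa, the protease of Igfbp4, changed by 0.40 ± 0.27 and Stc2, an inhibitor of PAPP-A, by 0.22 ± 0.12 (SE), and neither passed (limma, adjusted p = 0.319 and 0.24).

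In growth hormone signalling, which drives Igf1 transcription in liver, 1 of 8 tested genes was higher and 3 were lower. Of all genes tested, 10.1% were higher and 10.5% lower. Socs3, a feedback inhibitor of cytokine receptors, had levels of 1.00, 0.65 and 0.70 in sham and 2.55, 2.05 and 2.22 in tail-suspended hearts. Its log2 change of 1.49 ± 0.16 (SE; limma, adjusted p = 0.00345) passed in all 19 alternatives. Stat5a, a transcription factor activated by the growth hormone receptor, fell by 0.71 (limma, adjusted p = 0.00748) and the inhibitor Socs1 by 0.80 (limma, adjusted p = 0.0238). The call of Socs1 was lost without any 1 sham array and without tail-suspension replicate 1 or 3 (limma, adjusted p 0.0572 to 0.0759). Ghr, the growth hormone receptor, stood at 4.50, 4.35 and 4.43 in sham and at 3.89, 4.0 and 3.75 in tail-suspended hearts, a log2 change of -0.55 ± 0.10 (SE; limma, adjusted p = 0.0156). This call was lost without sham replicate 1 or 2 or tail-suspension replicate 3 (limma, adjusted p 0.0501 to 0.0569). A dimmer Ghr probe did not follow it, with a log2 change of 0.06 (limma, adjusted p = 0.693).

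Among 13 tested adaptors and brakes of the receptor, 1 was higher and 1 lower, where 10.1% and 10.5% of all genes tested were. Irs2, which encodes a docking protein below the insulin and IGF-1 receptors, had levels of 2.72, 3.17 and 3.11 in sham and 4.12, 4.55 and 3.65 in tail-suspended hearts. All tail-suspension arrays were above all sham arrays, and the log2 change was 1.11 ± 0.24 (SE; limma, adjusted p = 0.0243), which was lost without any 1 sham array or tail-suspension replicate 1 (adjusted p 0.055 to 0.0757). The related Irs1 changed by -0.25 ± 0.18 (SE; limma, adjusted p = 0.359). The other Irs1 probe changed by 0.04 (limma, adjusted p = 0.876). Grb14, an adaptor that inhibits the insulin receptor, fell by 0.57 on the log2 scale (SE 0.10; limma, adjusted p = 0.0136), a call lost without sham replicate 2 (limma, adjusted p = 0.061).

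In PI3K-Akt-mTOR signalling all 29 listed genes were tested, and 3 were higher, 3 lower and 23 not called. Of all genes tested, 10.1% were higher and 10.5% lower, so these counts do not set the list apart. Pik3r1, a regulatory subunit of PI3K, rose by 1.1 (limma, adjusted p = 0.00916) and Pik3r3, another regulatory subunit, fell by 0.63 (limma, adjusted p = 0.0106). Eif4ebp1, which encodes the repressor of translation that mTOR inactivates, rose by 0.90 (limma, adjusted p = 0.00514). The pseudokinase gene Trib3 rose by 0.55 (limma, adjusted p = 0.0256) while Trib2 fell by 0.47 (limma, adjusted p = 0.0367; its other probe -0.24, adjusted p = 0.255). Inppl1, a lipid phosphatase that opposes PI3K, fell by 0.71 (limma, adjusted p = 0.0243). The calls of Trib2 (without any 1 sham array or tail-suspension replicate 2 or 3; limma, adjusted p 0.0668 to 0.122), Inppl1 (without sham replicate 1 or 2 or tail-suspension replicate 1 or 2; 0.0523 to 0.0859) and Trib3 (without sham replicate 1 or 2 or tail-suspension replicate 3; 0.0736 to 0.0959) were lost when single arrays were left out, those of Pik3r1, Pik3r3 and Eif4ebp1 were not. Kinases of the pathway were among the genes not called: Akt1 changed by -0.12, Akt2 by 0.17 and Mtor by 0.03 on the log2 scale.

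Of 15 tested FoxO factors and FoxO-linked targets, 4 were higher and 3 lower, where 10.1% and 10.5% of all genes tested were. Foxo3, a FoxO transcription factor that Akt holds out of the nucleus, rose from levels of -1.15, -1.52 and -1.53 in sham to 0.31, 0.00 and 0.31 in tail-suspended hearts. The log2 change of 1.61 ± 0.15 (SE), or 3.04-fold, passed (limma, adjusted p = 0.00251) and did so in all 19 alternatives. Foxo1 changed by 0.16 (limma, adjusted p = 0.219) and the brain-enriched Foxo6 fell by 1.08 (limma, adjusted p = 0.0379). Among targets, Sesn1, which restrains mTOR under stress, rose by 1.06 (limma, adjusted p = 0.00882), Cited2, a co-regulator of transcription, by 0.83 (limma, adjusted p = 0.0125; its other probe 0.43, adjusted p = 0.0612), and the metabolic regulator Klf15 by 0.94 (limma, adjusted p = 0.0276). Gadd45a, a stress gene of growth arrest, fell by 1.02 (limma, adjusted p = 0.0146) and the repressor Bcl6 by 0.65 (limma, adjusted p = 0.0238). Several of these calls were lost when single arrays were left out (limma): that of Foxo6 without sham replicate 1 or 3 or any 1 tail-suspension array (adjusted p 0.0573 to 0.111), that of Klf15 without sham replicate 1 or any 1 tail-suspension array (0.0552 to 0.0851), that of Bcl6 without sham replicate 1 or 2 or tail-suspension replicate 1 or 3 (0.0521 to 0.0783), that of Cited2 without sham replicate 2 (0.0517) and that of Gadd45a without tail-suspension replicate 3 (0.0528). Fbxo32 and Trim63, the muscle ubiquitin ligases that FoxO factors induce in wasting muscle, changed by 0.64 and -0.07 and neither passed (limma, adjusted p = 0.0635 and 0.786). G6pc and Pck1, FoxO targets of the liver, were not tested for lack of signal.

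**Figure D4:**
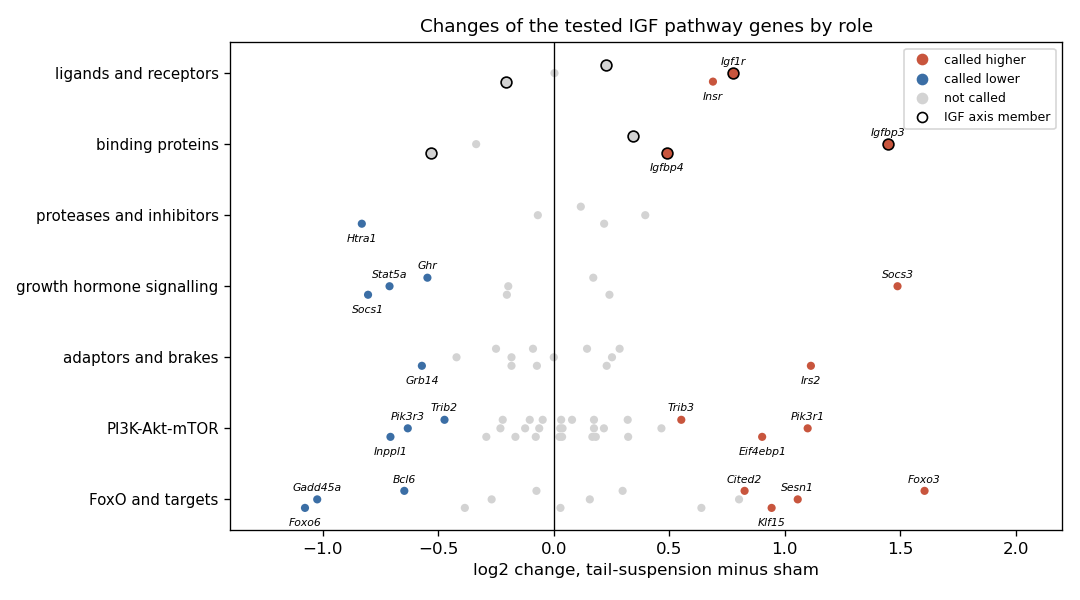
Log2 change, tail-suspension minus sham (horizontal axis), of the tested genes of the pathway by role (rows), each read from its brightest tested probe. Coloured and named points passed an adjusted p of 0.05 (higher or lower), grey points did not, and circled points are the members. Called genes lie on both sides of 0 in growth hormone signalling, adaptors, PI3K-Akt-mTOR and FoxO.

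Other cell types were followed through marker lists, since blood cells and vessels also carry genes of this axis. Of 6 neutrophil markers tested, 4 were higher, by 4.61 to 5.41 on the log2 scale for S100a9, Ltf, S100a8 and Retnlg, and none was lower. Retnlg and Ltf were well above background on 0 of 3 sham arrays. They entered the test only through the tail-suspension arrays, so the size of their changes depends on the background level. S100a9 and S100a8, well above background on all arrays, changed by 4.61 and 4.80. The summed neutrophil level, in multiples of the 75th percentile of the array, was 170.0 to 199 in sham and 246 to 277 in tail-suspended hearts. This sum is carried by 1 probe, Csf3r, which was not called and made up 99.4% of it in sham; without Csf3r it was 0.797 to 1.28 in sham and 9.40 to 60.0 in tail-suspended hearts. Ngp was not tested for lack of signal, and no probe of the name Ly6g was found. In the lists that follow, except that of adipocytes, the brightest probe made up 21.3% to 81.6% of the sham sum. Of 8 endothelial markers 1 was higher and 4 lower (summed level 198 to 210.0 against 179 to 193), of 7 macrophage markers 1 was higher (34.7 to 46.8 against 39.1 to 62.5), and of 5 erythroid markers 2 were lower (499 to 818 against 125 to 398). Egfl7, which was lower, made up 65.9% of the endothelial sum in sham. Without Egfl7 the order of the groups was reversed, at 66.6 to 73.1 in sham and 75.5 to 79.5 in tail-suspended hearts. Fibroblasts had 1 of 8 lower (328 to 349 against 319 to 416), pericytes and smooth muscle 1 of 8 lower (108 to 130 against 113 to 144), lymphocytes 2 of 4 lower (3.11 to 3.28 against 2.39 to 2.71) and cardiomyocytes 1 of 8 lower (5530 to 5990 against 5040 to 5200). The fibroblast sum was carried by Dcn, which was not called and made up 73.9% of it in sham. Without Dcn it was 78.1 to 103 in sham and 33.8 to 70.9 in tail-suspended hearts, with no overlap. The single adipocyte marker tested of 7, Cfd, did not pass. Ahsg and Ttr were higher among 6 hepatocyte markers tested, whereas Alb, Apoa1, Fga and Fgb, which define that cell, were not tested for lack of signal (summed level 6.72 to 7.99 against 9.75 to 16.6). The part of any of these cells in the levels of Igfbp3, Igf1r, Igfbp4 or the other members was not tested.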

How the data were processed

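Gene expression was measured on 1-colour Agilent arrays for 3 sham and 3 tail-suspended hearts. The authors extracted the scans with Agilent Feature Extraction 10.7.1.1 and deposited each spot's intensity, with a separate table of log2 values covering the 6 arrays. Here the log2 processed intensity, without control or outlier spots and averaged over the spots of a probe, was set against the array's own 75th percentile. A probe had signal on an array if at least 50% of its spots carried the flag for being well above background, and it entered the test if that held for all arrays of 1 group. Tests were run in R 4.3.3 with limma 3.58.1 (lmFit, eBayes, no covariate, all 6 arrays), p-values being adjusted by Benjamini-Hochberg, at a threshold of 0.05. The number of arrays limits the precision.

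The members, pathway lists, markers and alternatives were chosen with earlier results of these data known. Named are all members and, from each pathway list, up to 3 called genes in each direction by lowest adjusted p, plus Igf2, Insr, Irs1, Irs2, Ghr, Pappa and Stc2. Igfals, Akt1, Akt2, Mtor, Foxo1, Klf15, Fbxo32, Trim63, G6pc and Pck1 were added after their values were seen. In the marker lists only called or defining genes, or the brightest of a list, are named. Probe positions are those of the array files on mm9, and promoters are from RefSeq (GRCm38.p6). The alternatives were a percentile from probes with signal on all arrays, normexp (offset 50), quantile normalization and the log2 table of the authors in place of the scaling; no filter, a filter asking for signal on all arrays, and outlier spots kept; the methods' t-test, array weights, and eBayes with a trend and robust variances; a block for slide row or replicate number; the mean over a gene's probes; and leaving out single arrays. The steps were tested on simulated data.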

Additional observations from a re-analysis of the deposited data

How the results depend on the processing

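In the main fit used here, 2897 probes rose and 2686 fell, with 3 members higher, 0 lower, and 10 and 11 pathway genes. No member that passed changed sign under any of 19 alternatives, and Igfbp3 passed in 18 of them. Without a filter on dim probes, 1016 probes were higher and 817 lower, 1 member was higher and 2 pathway genes were lower. With the methods' t-test and Benjamini-Hochberg adjustment, 1242 probes were higher and 1091 lower, 1 member was higher, 1 (Igf1) was lower, and 4 pathway genes passed in each direction. Blocking on the slide row left 343 higher and 213 lower probes, 0 members and 2 pathway genes were higher and 0 pathway genes lower (limma; 5880 probes had an unadjusted p under 0.05), and only tail-suspension replicate 1 shared a row with sham arrays. With array weights 4203 probes were higher and 4168 lower. Igfbp5 passed as the 1 member lower with array weights, normexp, the stricter filter, the trend with robust eBayes and the mean over probes. Leaving out 1 array gave 978 to 3003 probes higher, 766 to 2509 lower, 1 to 3 members higher, 0 to 1 lower, 7 to 10 pathway genes higher and 4 to 9 lower. The fewest probes passed without sham replicate 2, and 1 member remained higher without any sham array or tail-suspension replicate 1 or 3. The cause of these changes was not tested.

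The replicate numbers did not pair the arrays (correlations of same-numbered deviations of -0.02, -0.02 and 0.05). A block for the replicate number gave 1750 higher and 1475 lower probes, with 3 members higher and 0 lower and 10 pathway genes higher and 8 lower; the calls of Socs1, Trib2 and Inppl1 were among those lost (limma, adjusted p = 0.0529, 0.0853 and 0.0679).

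Changes that did not pass also turned sign: Igf1 A_55_P2031636 to 0.11 with array weights and between -0.29 and 0.14 without 1 array, A_55_P2085974 to 0.008 with array weights, 0.041 with the slide row and between -0.36 and 0.16 without 1 array, and A_55_P2085979 to 0.12 as the mean over probes. Akt1 turned to 0.177 with the slide row and lay between -0.275 and 0.063 without 1 array, and Trim63 lay between -0.285 and 0.038 without 1 array. Pappa turned to -0.092 with normexp, and Igf2 to -0.21 with normexp, -0.08 with quantile normalization, -0.074 with the authors' values and between -0.24 and 0.17 without 1 array. No scaling moved the median of all probes by more than 0.05. Signal over background limits Igfbp1, Igfbp2, Igfbp7, Igf2 and Pappa, whose low signals give a bound or a wide interval.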
